A study of Rattus norvegicus with 12 samples.

Results

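The tubulin genes encode the subunits of microtubules, and 10 of them were taken from the deposited expression table by gene symbol: Tuba1a, Tuba1b, Tuba1c and Tuba4a (alpha tubulins) and Tubb2a, Tubb2b, Tubb3, Tubb4b, Tubb5 and Tubb6 (beta tubulins). They are 10 of the 18344 rows of the table, and each symbol was found in 1 row. The set was chosen by the FPKM of Tubb3 in CIRBP and NC libraries, where it was among the genes with the largest increases. Values of all 10 genes in that comparison are given as a description, without a test.

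Microtubules are hollow polymers of alpha-beta tubulin heterodimers that carry transport, shape the cell and build the mitotic spindle. Mammals make several alpha and beta isotypes from separate genes, and cells differ in the mix they use. Tubb3, class III beta tubulin, is best known as a marker of neurons, although some dividing and tumour cells also make it.

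Poly-A RNA had been sequenced from 12 libraries of rat cells, 3 in each of 4 groups, all after OGD/R, which stands for deprivation of oxygen and glucose with later reperfusion and is a culture model of ischaemia. The groups were OGD/R + CIRBP, OGD/R + NC, OGD/R + si-CIRBP and OGD/R + si-NC, where CIRBP is the cold-inducible RNA-binding protein, and the labels neither spell out NC and si-NC nor describe how CIRBP was supplied or silenced. The table's columns for CIRBP and NC carry a prefix, ad, that those of the other groups lack and that the labels leave unexplained. Titles name H9C2, a rat line derived from embryonic heart, while the cell line label names rat astrocytes, so the identity of the cells is unclear, and a group without OGD/R was not analysed here. Libraries of a group are called biological replicates in their titles. All levels below are FPKM, fragments scaled by the authors to transcript length and library size, so that genes can be compared with each other.

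Several measures of the whole series touch the tubulin results. Cirbp itself averaged 35.8 ± 1.27 FPKM in CIRBP libraries and 19.7 ± 0.557 FPKM in NC libraries (SD, n = 3 each), but 27.6 ± 1.04 FPKM in libraries labelled si-CIRBP and 26.7 ± 2.43 FPKM in the si-NC libraries. Since it was not lower in libraries labelled si-CIRBP, their label has no support from the level of its target. Library 1 of si-NC had a score of -0.641 on the first principal component, against 53.4 and 41.2 for the others of its group, and its mean correlation was 0.961 with its own group and 0.976 with NC. Library 1 of si-CIRBP had a score of -37.3 on the third component, against 13.7 and 15.5 for the others of its group, and mean correlations within the group were 0.970 for it and 0.9810 and 0.9804 for the others. Of 10 skeletal and cardiac markers, 1 averaged at least 1 FPKM in CIRBP, 2 in NC, 7 in si-CIRBP and 6 in si-NC libraries. Among them Actc1 and Ckm were under 0.5 FPKM in all 12 libraries, and the muscle determination gene Myod1 was at 1.74 to 21.6 FPKM in the si-CIRBP and si-NC libraries and under 0.1 FPKM in all CIRBP and NC libraries. The glial genes Sox10 and Gfap were at 123 to 203 FPKM and 1.44 to 6.89 FPKM over all libraries. From the same lists, S100b was at 111 to 188 FPKM, Pdgfra at 51.9 to 165 FPKM and Cspg4 at 86.5 to 133 FPKM. Of 6 astrocyte markers, 3 averaged at least 1 FPKM in CIRBP and NC libraries and 4 in si-CIRBP and si-NC libraries. Of 7 oligodendrocyte lineage markers, 6 averaged at least 1 FPKM in CIRBP libraries and 5 in each other group. The glial markers Slc1a2, Aldh1l1 and Mbp were under 1 FPKM in all 12 libraries. Sums of smooth muscle markers ran from 2.98 to 3.59 FPKM in CIRBP libraries, from 5.45 to 7.61 FPKM in NC libraries and from 687 to 877 FPKM in libraries labelled si-CIRBP. In si-NC libraries the same sums were 109, 1362 and 1041 FPKM.

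Tubb3 (ENSRNOG00000017209, rat chromosome 19) was at 18.3, 20.3 and 19.2 FPKM in CIRBP libraries and at 3.33, 3.02 and 3.18 FPKM in NC libraries. All 3 CIRBP libraries lay far above all 3 NC libraries, and neither group spread by more than a few FPKM. The means were 19.3 ± 1.04 and 3.18 ± 0.151 FPKM in CIRBP and NC libraries (SD, n = 3 each), a ratio of 6.07 and a difference of 2.28 in log2(FPKM + 1). Tubb3 was at 13.5, 3.22 and 2.87 FPKM in libraries labelled si-CIRBP and at 2.17, 3.40 and 2.60 FPKM in the si-NC libraries. Here 1 library, si-CIRBP 1, was high, the other two lay within the range of si-NC, and the groups overlapped. The difference of 0.75 (95% interval -0.12 to 1.62) did not pass the limma test (adjusted p = 0.185, Benjamini-Hochberg over all genes, n = 3 each). Without si-CIRBP 1 it was 0.13 (adjusted p = 0.439 by limma), so 1 library carried most of it. The level of Tubb3 in the libraries of si-NC and NC overlapped, with a difference of -0.18, given without a test because the choice of Tubb3 used the NC libraries.

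**Figure D1:**
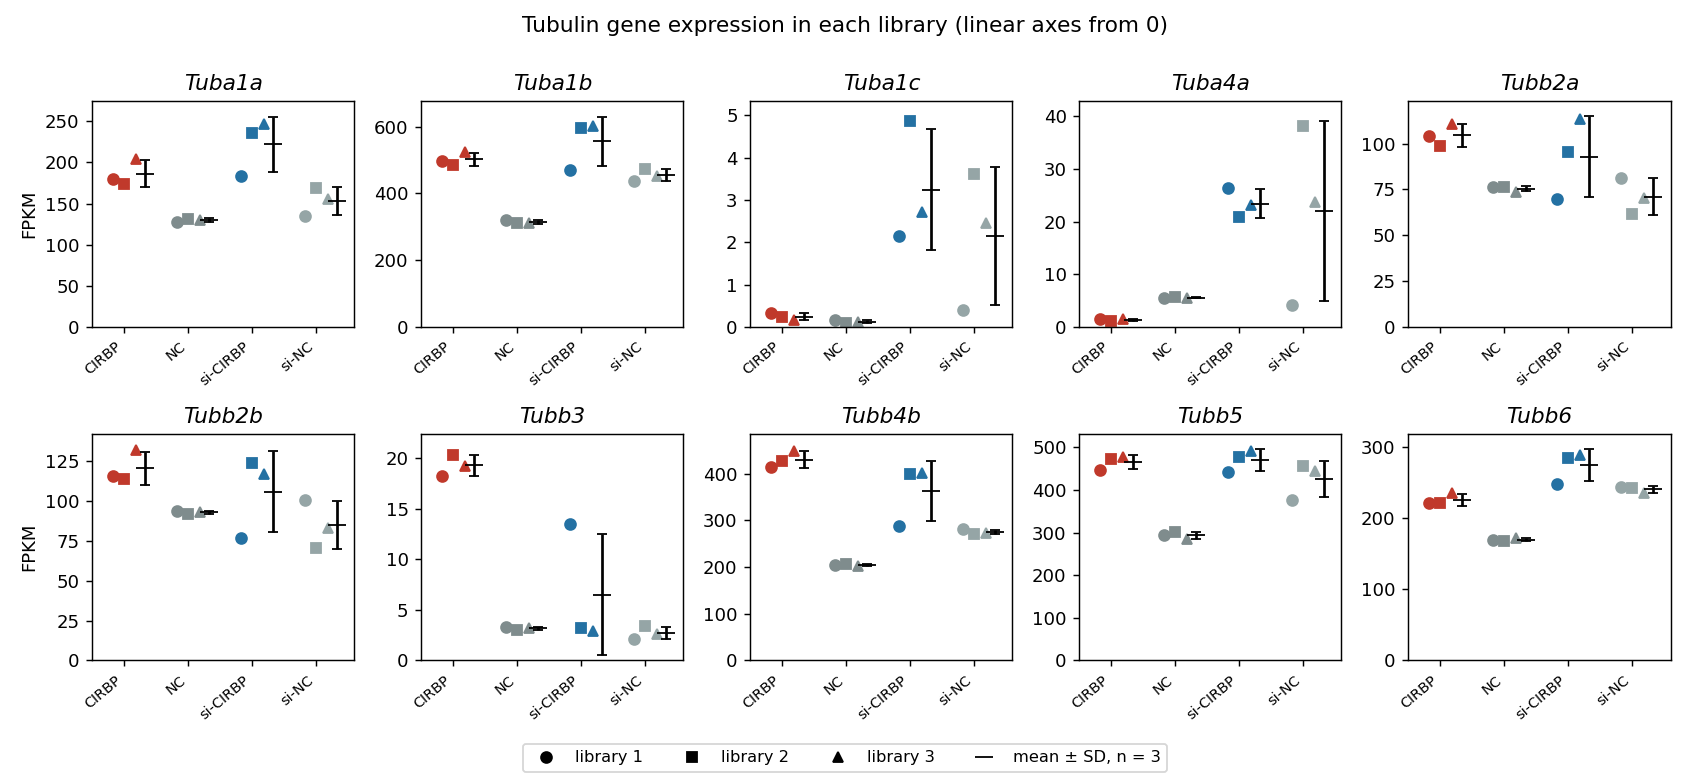
FPKM (linear axes from 0) of the 10 tubulin genes, 1 panel per gene, with a symbol for each of the 12 libraries and the mean ± SD (n = 3) beside each group. Tubb3 sits at 18.3 to 20.3 FPKM in all CIRBP libraries and at 13.5 FPKM in si-CIRBP 1, against 2.17 to 3.40 FPKM in the other 8 libraries, and Tuba4a is lowest in CIRBP libraries.

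The promoters of 3 members are printed because they carry the contrast in the CIRBP comparison: Tubb3 had the largest increase, Tubb4b the next largest, and Tuba4a was the only member that was lower. Each is the RefSeq sequence of GRCr8 from 250 bases before to 50 bases after the gene's start, read along the gene's strand 5′ to 3′, and all 10 members were matched by symbol. Tubb3 lies at chr19:68365437-68365736 on the plus strand, Tubb4b at chr3:28438406-28438705 on the minus strand and Tuba4a at chr9:84162535-84162834 on the minus strand. Capitals mark matches on either strand to the motifs listed after the sequences.
Tubb3: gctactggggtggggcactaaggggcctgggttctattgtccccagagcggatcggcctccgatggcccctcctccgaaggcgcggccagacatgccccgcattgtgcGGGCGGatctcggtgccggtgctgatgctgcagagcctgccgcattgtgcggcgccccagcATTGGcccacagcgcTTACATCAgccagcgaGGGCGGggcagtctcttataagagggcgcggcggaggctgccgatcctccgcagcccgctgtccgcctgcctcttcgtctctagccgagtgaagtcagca
Tubb4b: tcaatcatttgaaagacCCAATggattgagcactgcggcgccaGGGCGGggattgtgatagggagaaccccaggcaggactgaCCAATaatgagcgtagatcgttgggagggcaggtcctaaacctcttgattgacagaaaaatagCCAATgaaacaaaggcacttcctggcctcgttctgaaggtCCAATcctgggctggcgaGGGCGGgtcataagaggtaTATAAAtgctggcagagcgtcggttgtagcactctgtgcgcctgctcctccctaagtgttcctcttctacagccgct
Tuba4a: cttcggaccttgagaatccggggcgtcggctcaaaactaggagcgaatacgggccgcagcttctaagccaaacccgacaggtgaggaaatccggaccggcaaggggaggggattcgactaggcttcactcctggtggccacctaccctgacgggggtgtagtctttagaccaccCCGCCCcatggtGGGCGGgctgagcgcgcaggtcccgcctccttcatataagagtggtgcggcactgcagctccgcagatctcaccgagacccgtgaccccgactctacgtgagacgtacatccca

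Both strands were searched for 5 motifs that bind general or stress-related factors. The TATA box was searched as TATAAA and the GC box as GGGCGG. The CCAAT box was searched by the letters of its name, and the CArG box, bound by serum response factor, by its usual consensus. The core of the amino acid response element, which ATF4 and CEBP factors bind, was searched as TGATGNAA. A GC box was found in 9 of the 10 tubulin promoters, against 33.1% of all 33469 rat promoters of that length, and a CCAAT box in 8 of 10, against 37.5%. A TATA box was found in 2 of 10 (Tubb2a and Tubb4b), against 14.2% of all promoters, and the CArG box in 0 of 10, against 1.64%. Tubb3 alone of the 10 held TGATGNAA, which is present in 3.98% of all promoters and reads TTACATCA on the printed strand. In the printed promoters, Tubb4b has 4 CCAAT boxes, Tubb3 has 1 and Tuba4a has 0. These matches describe letters in the window and were not tested against expression.

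Among the alpha tubulins, Tuba1b and Tuba1a supplied nearly all of the message. Tuba1b (ENSRNOG00000053468, chromosome 7), the broadly expressed alpha tubulin of most cells, was at 498, 485 and 524 FPKM in CIRBP libraries and at 320.5, 312 and 311 FPKM in NC libraries. Every CIRBP library was above every NC library, with means of 502 ± 19.6 and 315 ± 5.10 FPKM (SD, n = 3 each) and a ratio of 1.60. Tuba1a (ENSRNOG00000060728, chromosome 7), the main alpha tubulin of the developing brain, was at 180.2, 174 and 205 FPKM in CIRBP libraries and at 128, 132 and 130.1 FPKM in NC libraries. Again the groups did not overlap, and the ratio of the means was 1.43.

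Tuba4a went the other way. Tuba4a (ENSRNOG00000003597, chromosome 9), an alpha tubulin of muscle, brain and platelets whose gene does not encode the usual terminal tyrosine, was at 1.44, 1.09 and 1.50 FPKM in CIRBP libraries and at 5.55, 5.62 and 5.53 FPKM in NC libraries. All CIRBP libraries lay below all NC libraries, the ratio of the means was 0.242 and the difference -1.49. Tuba1c (ENSRNOG00000021438, chromosome 7), another widely expressed alpha tubulin, was at 0.330, 0.233 and 0.177 FPKM in CIRBP libraries and at 0.159, 0.104 and 0.108 FPKM in NC libraries. These levels are under 1 FPKM, and Tuba1c passed the filter on low values (at least 1 FPKM in 3 or more libraries) only through the other 2 groups.

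Of the beta tubulins other than Tubb3, Tubb4b differed most between CIRBP and NC. Tubb4b (ENSRNOG00000010170, chromosome 3), a broadly expressed isotype that is also rich in cilia, was at 414, 427 and 449.8 FPKM in CIRBP libraries and at 205, 207 and 202 FPKM in NC libraries. The groups were far apart, with means of 430.2 ± 18.2 and 205 ± 2.19 FPKM (SD, n = 3 each) and a ratio of 2.10. Tubb5 (ENSRNOG00000061216, chromosome 20), the most general beta tubulin, was at 447, 473 and 476 FPKM in CIRBP libraries and at 295, 301 and 284 FPKM in NC libraries, a ratio of 1.59 with no overlap.

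Tubb2a (ENSRNOG00000017558) and Tubb2b (ENSRNOG00000017445), neighbouring genes on chromosome 17 whose products are prominent in brain, had the same pattern at lower levels. Tubb2a was at 104, 98.4 and 111 FPKM in CIRBP libraries and at 76.2, 76.4 and 73.6 FPKM in NC libraries. Tubb2b was at 115, 114 and 132 FPKM in CIRBP libraries and at 93.5, 91.8 and 93.0 FPKM in NC libraries. Both stood above NC in every CIRBP library, by ratios of 1.38 and 1.30. Tubb6 (ENSRNOG00000018371, chromosome 18), a divergent isotype whose excess disturbs microtubule arrays, was at 220.4, 221 and 235 FPKM in CIRBP libraries and at 169, 168 and 172 FPKM in NC libraries, a ratio of 1.33. It too showed no overlap between the groups.

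Counted over the set, 9 of the 10 tubulins were higher in all 3 CIRBP libraries than in any NC library, a state that 29.7% of the 14257 genes tested shared. The 9 include Tubb3, by which the contrast was chosen. They also include Tuba1c, which passed the filter on low values only through the si-CIRBP and si-NC libraries. Tuba4a was the 1 member below, as were 45.0% of all genes, and 0 members overlapped, where 74.7% of all genes did not overlap. The median difference of the members was 0.49, against -0.08 over all genes, and 54.0% of all genes passed the limma test in this comparison (2814 higher and 4881 lower, or 4089 and 3758 after scaling the libraries to 1 median). Because this contrast chose Tubb3, these counts are given as a description only. In bulk RNA, more cells of a type and more message per cell cannot be told apart.

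**Figure D2:**
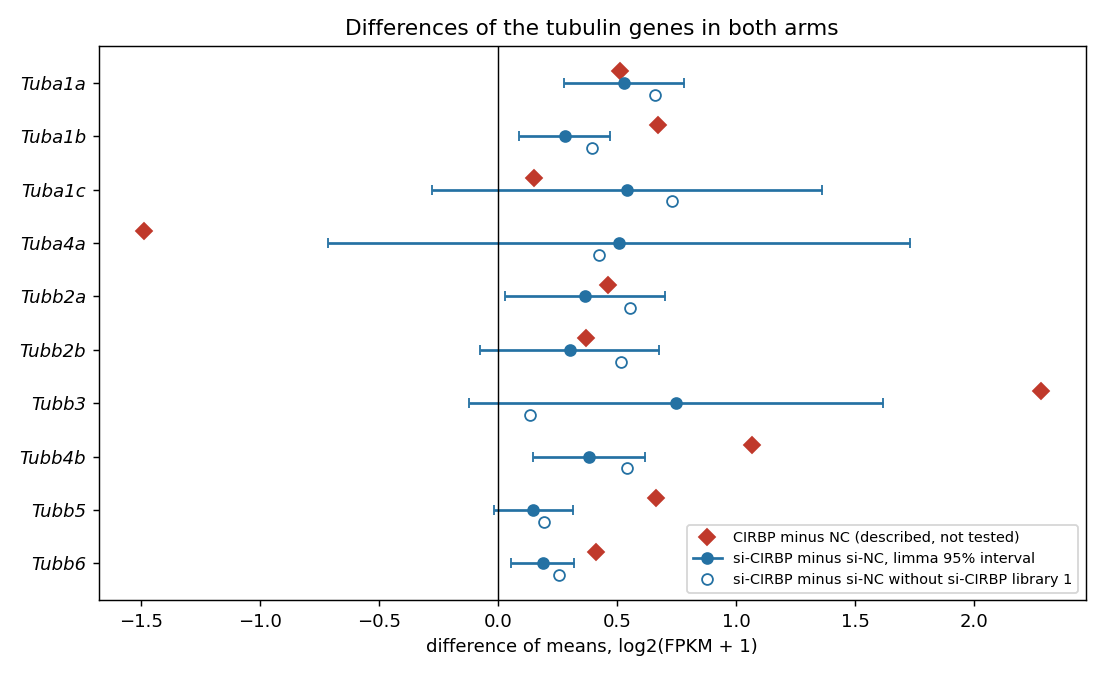
Difference of means in log2(FPKM + 1) of each tubulin gene in CIRBP minus NC (diamonds, not tested), in si-CIRBP minus si-NC (filled circles with the 95% interval from limma) and in the same without si-CIRBP 1 (open circles). Tubb3 stands at 2.28 and Tuba4a at -1.49 in CIRBP minus NC, while the 10 filled circles lie between 0.15 and 0.75 and the open circle of Tubb3 at 0.13.

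The libraries labelled si-CIRBP and those of si-NC, called the si arm after their labels, were compared by a test, since the rule for Tubb3 used the CIRBP and NC libraries. The members were nonetheless chosen with earlier results of all groups known. Of the 10 tubulins, 4 were called higher (adjusted p under 0.05) in libraries labelled si-CIRBP than in si-NC libraries and 0 were called lower by limma, with 5 members at an unadjusted p under 0.05 in all. Over all genes 9.08% were called higher and 20.5% lower (1294 and 2924, or 2420 and 1903 after scaling to 1 median). The 4 were Tuba1a, Tuba1b, Tubb4b and Tubb6, all of them abundant isotypes. The median difference of the members was 0.37, against -0.04 over all genes, and 3 members had every library labelled si-CIRBP above every si-NC library, as had 11.7% of all genes. The other 7 members overlapped and 0 lay below in every library, where 36.1% of all genes did not overlap and 24.3% lay below. In either direction 29.6% of all genes were called.

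Tuba1a was at 184, 236 and 246 FPKM in libraries labelled si-CIRBP and at 135, 169 and 155 FPKM in the si-NC libraries. The groups did not overlap, and Tuba1a was higher by 0.53 (SE 0.114, adjusted p = 0.00624 by limma, n = 3 each). Tuba1b was at 469.5, 595 and 601 FPKM in libraries labelled si-CIRBP and at 438, 474 and 453 FPKM in the si-NC libraries. Here si-CIRBP 1 fell inside the range of si-NC, and Tuba1b was higher by 0.28 (SE 0.0865, adjusted p = 0.0332 by limma).

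Tubb4b was at 288, 399 and 402 FPKM in libraries labelled si-CIRBP and at 281, 272 and 274 FPKM in the si-NC libraries. It was above si-NC in every library, though only narrowly in si-CIRBP 1, and was higher by 0.38 (SE 0.107, adjusted p = 0.0216 by limma). Tubb6 was at 248, 285 and 289 FPKM in libraries labelled si-CIRBP and at 243, 242 and 234 FPKM in the si-NC libraries. It also did not overlap, and was higher by 0.19 (SE 0.0599, adjusted p = 0.039 by limma).

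The other beta tubulins did not pass the test in the si arm. Tubb5 was at 442, 478 and 491 FPKM in libraries labelled si-CIRBP and at 376, 457 and 443 FPKM in the si-NC libraries, a difference of 0.15 (95% interval -0.02 to 0.31, adjusted p = 0.168 by limma). Tubb2a was at 69.6, 95.6 and 113 FPKM in libraries labelled si-CIRBP and at 81.5, 61.4 and 70.2 FPKM in the si-NC libraries, and its difference was 0.36 (0.03 to 0.70, adjusted p = 0.0979 by limma). In Tubb5 the groups met only at the lowest library labelled si-CIRBP, and in Tubb2a si-CIRBP 1 was the lowest library of its group and si-NC 1 the highest of its own. Tubb2b was at 76.6, 124 and 117 FPKM in libraries labelled si-CIRBP and at 101, 70.5 and 83.2 FPKM in the si-NC libraries, with a difference of 0.30 (-0.08 to 0.68, adjusted p = 0.218 by limma). In Tubb2b too si-CIRBP 1 was the lowest library of its group, and it lay below si-NC 1 and si-NC 3.

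Tuba4a and Tuba1c varied more between libraries of a group than between these groups. Tuba4a was at 26.3, 20.8 and 23.1 FPKM in libraries labelled si-CIRBP and at 4.16, 38.1 and 23.8 FPKM in the si-NC libraries. Tuba1c was at 2.14, 4.86 and 2.73 FPKM in libraries labelled si-CIRBP and at 0.400, 3.62 and 2.45 FPKM in the si-NC libraries. For both genes si-NC 1 was the lowest of the 6 libraries, and the differences were 0.51 (-0.71 to 1.73) for Tuba4a and 0.54 (-0.28 to 1.36) for Tuba1c, with adjusted p of 0.53 and 0.309 by limma.

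The count of 4 depended on which libraries were used, not only those that stood apart, and on the estimate of spread. Without si-CIRBP 1, 6 members were called higher, with Tubb2a at 0.55 (adjusted p = 0.0037) and Tubb2b at 0.51 (adjusted p = 0.0095) added by limma. Leaving out si-NC 1 left 2 called, Tuba1a and Tubb4b, and leaving out si-CIRBP 2, si-CIRBP 3 or si-NC 3 left 1. Without both first libraries, 6 were called, while Tubb3 stood at 0.02 (adjusted p = 0.882 by limma) and Tuba4a at -0.44. When the 6 libraries of this arm were fitted alone, 0 members were called, with Tuba1a at an adjusted p of 0.0694 by limma, and when each group had its own variance factor 1 was called. Shares of all genes called in these refits are not given, so the changes in count are not shown to be particular to tubulins.

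The si-NC and NC groups differed in tubulins as well. Tubb5 averaged 425 ± 43.2 FPKM in the si-NC libraries and 293 ± 8.30 FPKM in NC libraries (SD, n = 3 each), higher by 0.53 (adjusted p = 0.000819 by limma). Tubb6 averaged 239.9 ± 4.93 FPKM in the si-NC libraries and 169.5 ± 2.21 FPKM in NC libraries, higher by 0.50 (adjusted p = 0.000363 by limma). Tuba1b (0.53, adjusted p = 0.00174) and Tubb4b (0.43, adjusted p = 0.0123) were also called higher by limma, which makes 4 higher and 0 lower of 8 members, against 12.5% and 21.9% of all genes, or 34.4% in either direction. At an unadjusted p under 0.05 Tuba4a is added to the higher ones and 0 are lower. Tuba1c passed the filter only through the si-CIRBP and si-NC libraries, so its difference of 1.33 is a description and is not counted. Of the same 8 members, 5 lay above in every si-NC library, 0 below, and 3 overlapped, where 19.1% of all genes lay above, 34.0% below, and 53.1% did not overlap. Tuba1a (0.23), Tuba4a (1.38), Tubb2a (-0.09) and Tubb2b (-0.14) did not pass, with adjusted p of 0.144, 0.0768, 0.666 and 0.55 by limma. This comparison shares the NC libraries with CIRBP minus NC, and whether the arms shared cells, delivery and time is not stated in the labels.

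Order of level among the isotypes was nearly fixed. In all 4 groups the means ran Tuba1b, Tubb5, Tubb4b, Tubb6, Tuba1a, Tubb2b and Tubb2a from high to low. Tuba4a came next, then Tubb3 and Tuba1c, except in CIRBP libraries, where Tubb3 stood above Tuba4a. Neighbours whose libraries overlapped were Tubb5 and Tubb4b in CIRBP libraries, Tuba1b and Tubb5 in both si groups, Tubb2b and Tubb2a in both si groups, Tubb3 and Tuba1c in both si groups, and Tubb4b and Tubb6 in libraries labelled si-CIRBP. Over all 12 libraries the highest value was 46.7 times the lowest for Tuba1c, 35.0 times for Tuba4a and 9.39 times for Tubb3, against 1.72 to 2.22 times for the other 7 genes.

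Summed over the members, alpha tubulin was at 689.9 ± 36.0 FPKM in CIRBP libraries and 450.2 ± 3.56 FPKM in NC libraries, and beta tubulin at 1365 ± 53.3 FPKM in CIRBP libraries and 839 ± 9.34 FPKM in NC libraries (SD, n = 3 each). The 10 genes held 0.424 ± 0.015% of all FPKM in CIRBP libraries and 0.280 ± 0.00555% in NC libraries. In the si arm they held 0.426 ± 0.0557% in libraries labelled si-CIRBP and 0.360 ± 0.00778% in si-NC libraries. The ratio of summed alpha to summed beta tubulin was 0.505 ± 0.0151 in CIRBP, 0.537 ± 0.0043 in NC, 0.612 ± 0.0109 in libraries labelled si-CIRBP and 0.575 ± 0.0436 in si-NC libraries. Between the libraries labelled si-CIRBP and si-NC it differed by 0.0373 (two-sided exact permutation p = 0.3, where 0.1 is the smallest that 3 against 3 allows).

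Tubb3 was a small part of beta tubulin everywhere. It made up 1.38, 1.50 and 1.35% of summed beta tubulin FPKM in CIRBP libraries and 0.395, 0.357 and 0.384% in NC libraries, without overlap. Its share was 1.18, 0.233 and 0.203% in libraries labelled si-CIRBP and 0.200, 0.307 and 0.235% in si-NC libraries, a difference of 0.293 percentage points (two-sided exact permutation p = 0.7). Only si-CIRBP 1 was outside the range of si-NC on the high side, and without it the difference was -0.0295 points. Tubb4b took 31.5 ± 0.115% of beta tubulin in CIRBP libraries and 24.4 ± 0.0273% in NC libraries, while Tubb6 took 16.5 ± 0.192% in CIRBP libraries and 20.2 ± 0.490% in NC libraries. Of alpha tubulin, Tuba4a took 0.194 ± 0.0259% in CIRBP libraries, 1.24 ± 0.0134% in NC libraries, 2.98 ± 0.774% in libraries labelled si-CIRBP and 3.34 ± 2.44% in si-NC libraries.

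**Figure D3:**
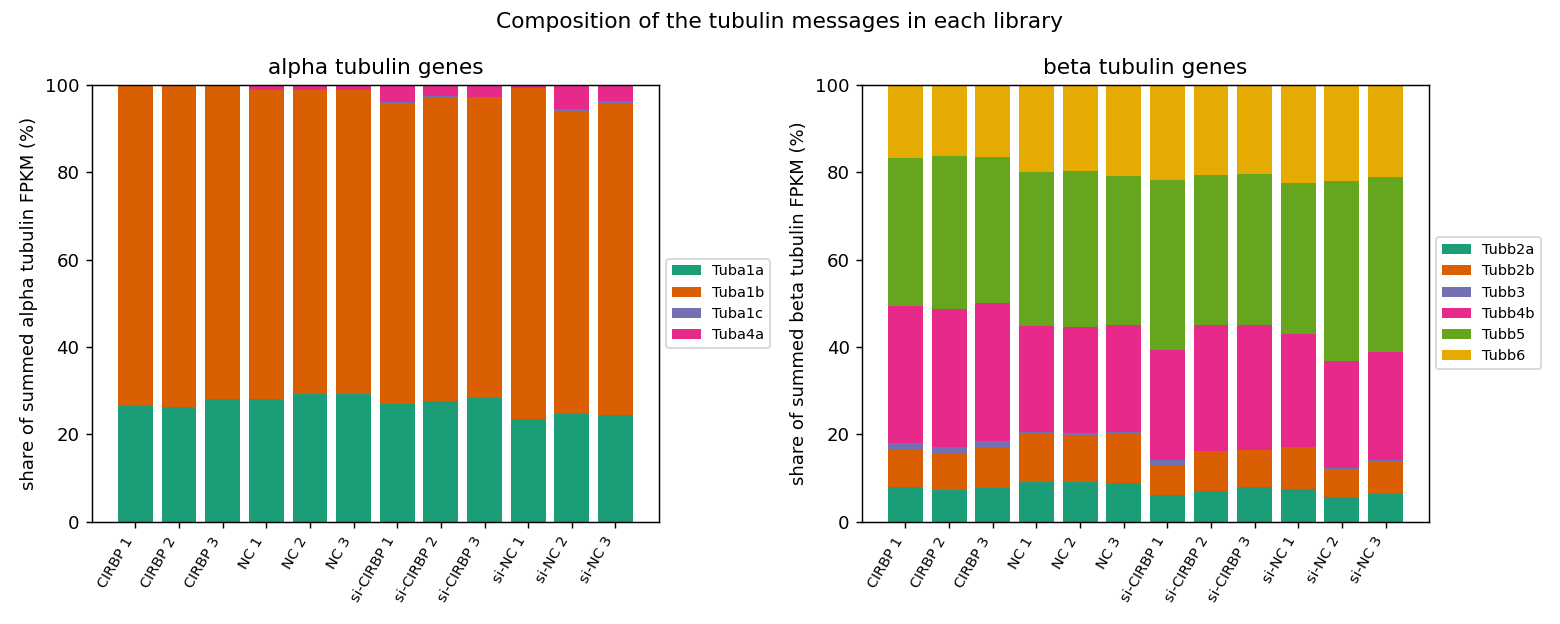
Share of each isotype in summed alpha tubulin FPKM (left) and in summed beta tubulin FPKM (right), in percent, 1 stacked bar per library in the order CIRBP, NC, si-CIRBP and si-NC. Tuba1b and Tubb5 are the largest parts of every bar, Tubb4b takes 31.5% of beta tubulin in CIRBP libraries against 24.4% in NC libraries, and Tubb3 is 1.50% or less in every library.

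Reads of near-identical genes bear on these levels. RefSeq names 14 pseudogenes after Tuba1b, 5 after Tuba1a, 4 after Tubb4b and 1 after Tuba4a in the rat genome, and the coding sequences of the Tuba1 genes and of Tubb2a and Tubb2b are very alike. The labels do not say how reads that fit several genes were counted, so single values within these families are uncertain.

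The genes whose levels followed Tubb3 most closely over the 12 libraries were Hpcal1 (Pearson r = 0.990), Nprl2 (0.985), Gramd1a (0.984), Slc2a8 (0.977) and Gtpbp2 (0.976), out of 11054 candidates. These r describe 12 points in which libraries of a group share their group's level and si-CIRBP 1 is 1 high point, and no p is given. Hpcal1, a calcium sensor of the neuronal calcium sensor family, was at 74.8 ± 2.16 FPKM in CIRBP libraries and 40.6 ± 0.282 FPKM in NC libraries (SD, n = 3 each). It reached 71.2, 40.8 and 39.8 FPKM in libraries labelled si-CIRBP, against 36.5 ± 0.140 FPKM in the si-NC libraries, so it too was high in si-CIRBP 1 alone. Gtpbp2, a GTPase that acts in ribosome rescue in mouse, was at 30.3 FPKM in CIRBP and 8.48 FPKM in NC libraries on average, and at 18.6, 9.49 and 9.16 FPKM in libraries labelled si-CIRBP, against an average of 9.84 FPKM in the si-NC libraries. Of the 10 tubulins, Tubb3 was the 1 member whose highest library in the si arm was si-CIRBP 1. The promoters of these 5 genes held 0 matches to TGATGNAA.

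**Figure D4:**
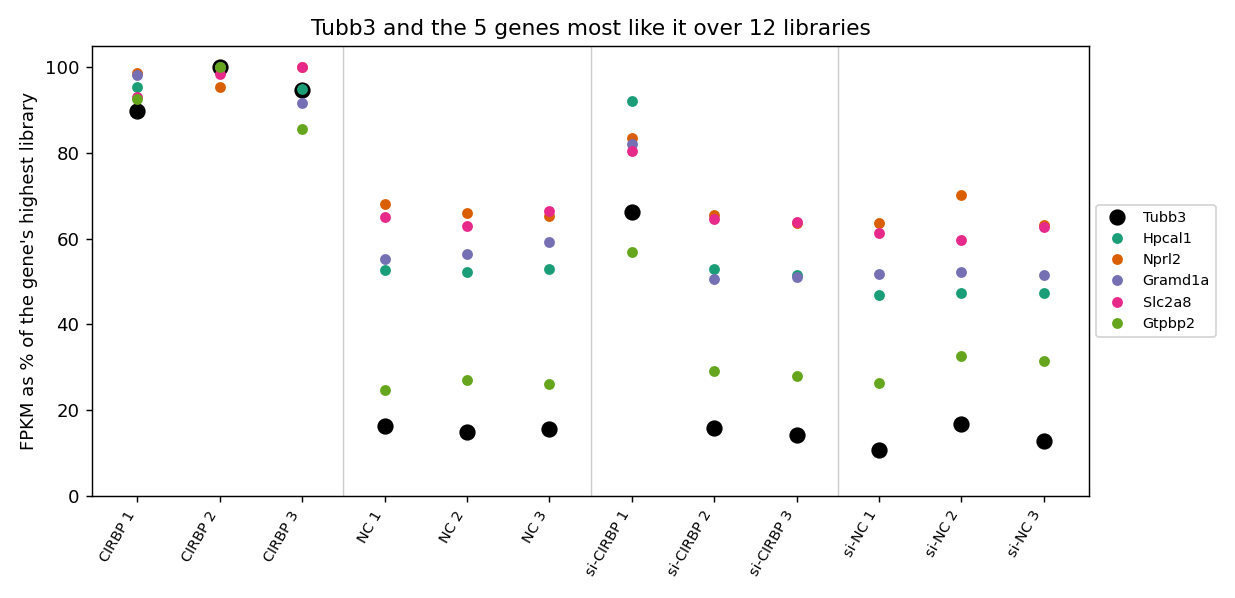
FPKM of Tubb3 (large black points) and of the 5 genes with the highest Pearson r to it, each as a percentage of that gene's highest library, over the 12 libraries. The 3 CIRBP libraries and si-CIRBP 1 are the 4 highest for all 6 genes, and Tubb3 has 13.5 FPKM in si-CIRBP 1 against at most 3.40 FPKM in the other 8 libraries.

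Tubulins outside the set were few and low, apart from gamma tubulin. Tubg1, the gamma tubulin that nucleates microtubules at the centrosome, averaged 103 ± 1.83 FPKM in CIRBP libraries and 70.0 ± 2.67 FPKM in NC libraries (SD, n = 3 each), higher by 0.55 (adjusted p = 3.09e-05 by limma). With the centriolar tubulins Tubd1 (0.54) and Tube1 (0.49), 3 of the 4 other tubulins tested were called higher and 0 lower in CIRBP libraries, against 19.7% and 34.2% of all genes. The fourth, the gamma tubulin Tubg2, averaged 12.2 FPKM in CIRBP libraries and 9.67 FPKM in NC libraries, and its difference of 0.31 was not called, although it was after scaling. In the si arm 0 of these 4 were called in either direction by limma, also at an unadjusted p under 0.05, and 1 was called higher without si-CIRBP 1. Tuba8 and Tuba3a were under 1 FPKM in all libraries, and Tuba3b, Tubal3, Tubb1 and Tubb4a were not analysed here.

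Of 20 genes for tubulin folding tested (the CCT ring, prefoldin and the tubulin cofactors), 2 were called higher and 8 lower in CIRBP than in NC libraries, against 19.7% and 34.2% of all genes, and the median difference was -0.11, close to the -0.08 of all genes. Cct4, a subunit of the CCT ring that folds new tubulin and actin, averaged 132 ± 1.59 FPKM in CIRBP libraries and 243 ± 8.05 FPKM in NC libraries and fell by 0.87 (adjusted p = 6.24e-06 by limma). Cct3 fell by 0.62 and Cct6a by 0.50, while Arl2, a GTPase that works with the cofactors, rose by 0.50. In the si arm Cct4 again fell, by 0.31 (adjusted p = 0.0144 by limma), and Arl2 (0.27) and Tbca (0.24) rose, which makes 2 higher and 1 lower, against 9.08% and 20.5% of all genes. Scaling the libraries to 1 median turned that split to 7 higher and 0 lower, and that of CIRBP against NC to 3 and 5. Over all genes the same scaling gave 2420 higher and 1903 lower in the si arm, from 1294 and 2924. In CIRBP against NC it gave 4089 and 3758, from 2814 and 4881. Leaving out si-CIRBP 1 gave 3 higher and 2 lower in the si arm, and leaving out si-NC 1 gave 3 and 1.

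Tubulin message is also set by autoregulation, in which TTC5 binds new tubulin chains when free tubulin is in excess and, through SCAPER and the CNOT11 arm of CCR4-NOT, has the message degraded. Of the 4 genes of this route, Ttc5 rose in CIRBP libraries, at 21.3 ± 0.53 FPKM against 17.9 ± 0.491 FPKM in NC libraries (0.24, adjusted p = 0.0214 by limma, n = 3 each). Cnot11 fell, at 18.6 ± 1.02 FPKM in CIRBP libraries against 23.0 ± 0.457 FPKM in NC libraries (-0.30, adjusted p = 0.00137 by limma). Scaper and Cnot1 were not called, which makes 1 higher and 1 lower, against 19.7% and 34.2% of all genes. After scaling to 1 median 3 were called higher and 1 lower, where 4089 and 3758 of all 14257 genes were. In the si arm 9.08% of all genes were called higher and 20.5% lower. There 0 of the 4 were called by limma, also at an unadjusted p under 0.05. Without si-CIRBP 1, whose spread enters the shared fit, 2 were called higher and 1 lower in CIRBP libraries and 1 higher in the si arm.

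Of 15 enzymes that modify tubulin, 6 were called higher and 4 lower in CIRBP than in NC libraries, against 19.7% and 34.2% of all genes. Ttll7, a glutamylase of beta tubulin, averaged 19.6 ± 0.388 FPKM in CIRBP libraries and 11.7 ± 0.290 FPKM in NC libraries and rose by 0.70 (adjusted p = 1.53e-05 by limma, n = 3 each). Ttll3, a glycylase, fell by 1.29 in CIRBP libraries, at 0.593 FPKM against 2.89 FPKM in NC libraries, and Agbl3, a deglutamylase, fell by 1.13. In the si arm 3 were called higher and 2 lower, among them Ttll7 (0.32) and Ttll1 (0.30) above, and Ttll3 (-0.50) and Agbl3 (-0.35) below, si-NC libraries. This compares with 9.08% and 20.5% of all genes. The split was 4 higher and 1 lower without si-NC 1, and 5 and 1 after scaling to 1 median.

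Of the factors that bind or take apart microtubules, Stmn1 stood out. Stmn1, which sequesters tubulin dimers, averaged 220 ± 6.21 FPKM in CIRBP libraries and 102 ± 3.96 FPKM in NC libraries and rose by 1.10 (adjusted p = 4.68e-07 by limma, n = 3 each). It also rose in libraries labelled si-CIRBP, at 185 ± 17.7 FPKM against 127 ± 3.01 FPKM in the si-NC libraries (0.53, adjusted p = 0.000283 by limma). In the list of 11 destabilising and severing factors, 4 were called higher and 1 lower in CIRBP libraries (19.7% and 34.2% of all genes), and 1 higher and 2 lower in libraries labelled si-CIRBP (9.08% and 20.5% of all genes). Without si-CIRBP 1, which enters the shared fit, the split of CIRBP against NC was 5 and 4. Of 21 microtubule-associated proteins, 5 were called higher and 8 lower in CIRBP libraries, and 3 and 3 in the si arm. The first split turned to 9 and 4 after scaling to 1 median, while that of all genes went from 2814 and 4881 to 4089 and 3758. The shares of all genes given above are those of the fit with all libraries, and apply to this list and to the gamma-tubulin list. The spindle factors Tacc3 (0.78) and Tpx2 (0.62) were among those higher in CIRBP libraries, and the neuronal Dclk1 (-0.49) among those lower. Of 11 genes of the gamma-tubulin complex and its anchors, 4 were called higher and 3 lower in CIRBP libraries, with Cdk5rap2 at 0.80 and Tubgcp5 at -0.67, and 0 higher and 2 lower in the si arm (Akap9 and Tubgcp5). Without si-CIRBP 1 the si arm gave 3 higher and 2 lower among the destabilising factors and 5 and 4 among the associated proteins, and without si-NC 1 it gave 1 and 1, 4 and 2, and 1 and 2 in the gamma-tubulin list.

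Neuronal markers beside Tubb3 were mixed in level. Stmn2, Syp and Gap43, defining genes of neurons, were under 0.6 FPKM in all 12 libraries, and Rbfox3, Dcx and Nefl were not analysed here. Uchl1, a deubiquitinase abundant in neurons but not confined to them, averaged 230 ± 3.40 FPKM in CIRBP libraries and 141 ± 2.49 FPKM in NC libraries and made up most of the summed neuron list (274 to 281 FPKM in CIRBP and 170 to 188 FPKM in NC libraries). Of 17 listed neuron markers 6 were tested, and 4 were called higher and 0 lower in CIRBP libraries (Uchl1, Prph, Map2 and Snap25), against 19.7% and 34.2% of all genes. Among the 6, Nefh averaged 0.068 FPKM in CIRBP and 0.089 FPKM in NC libraries. It passed the filter only through the si-CIRBP and si-NC libraries. In libraries labelled si-CIRBP 3 were called higher and 0 lower, against 9.08% and 20.5% of all genes, or 1 and 0 without si-CIRBP 1 and 3 and 1 without si-NC 1. Their part in the Tubb3 result was not tested.

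Rest, a repressor that keeps many neuronal genes silent in other cells, averaged 17.0 ± 1.21 FPKM in CIRBP libraries and 34.1 ± 0.694 FPKM in NC libraries (SD, n = 3 each). It fell by 0.96 (adjusted p = 2.75e-05 by limma), and by 0.71 in libraries labelled si-CIRBP, at 16.0 ± 2.50 FPKM against 26.6 ± 3.00 FPKM in the si-NC libraries (adjusted p = 0.000852 by limma). In the libraries labelled si-CIRBP Tubb3 was at 13.5, 3.22 and 2.87 FPKM. A link between Rest and Tubb3 was not tested. Of 6 listed genes of the REST complex, 4 were tested. In CIRBP libraries 3 of these were called lower and 0 higher (2 lower and 1 higher after scaling), against 34.2% and 19.7% of all genes. In libraries labelled si-CIRBP 2 were called lower and 0 higher, against 20.5% and 9.08% of all genes.

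Contractile and stromal markers were high in the si arm, where Tuba4a and Tuba1c also had their highest means, although Tuba4a in si-NC 1 lay below the NC libraries. Acta2, smooth muscle actin, was at 466, 546 and 659 FPKM in libraries labelled si-CIRBP and at 73.8, 954 and 722 FPKM in the si-NC libraries, against at most 2.18 FPKM in any CIRBP or NC library. Both Acta2 and Tuba4a were lowest in si-NC 1 and highest in si-NC 2 among these 6 libraries, but within the si-CIRBP group Acta2 was lowest in library 1, where Tuba4a was highest. Summed skeletal and cardiac markers were at 30.4, 120 and 180.2 FPKM in libraries labelled si-CIRBP and at 16.3, 130 and 56.3 FPKM in the si-NC libraries, and summed fibroblast markers at 395, 614 and 770.1 FPKM in libraries labelled si-CIRBP and at 53.0, 780 and 470 FPKM in the si-NC libraries. In the CIRBP and NC libraries the skeletal and cardiac sums were 5.73 to 6.99 and 8.53 to 10.04 FPKM, and the fibroblast sums 4.92 to 5.92 and 7.26 to 9.17 FPKM. In those libraries, with the markers low in both groups, Tuba4a averaged 1.34 ± 0.225 FPKM in CIRBP and 5.57 ± 0.0458 FPKM in NC libraries (SD, n = 3 each). Between the libraries labelled si-CIRBP and si-NC, 0 genes of the smooth muscle, fibroblast, and skeletal and cardiac lists were called by limma, also at an unadjusted p under 0.05. Without si-NC 1 the smooth muscle list had 3 of 4 lower and the skeletal and cardiac list 1 of 7 lower, and without si-CIRBP 1 the skeletal and cardiac list had 3 of 7 higher. With all libraries, 19.7% of all genes were called higher and 34.2% lower in CIRBP against NC, and 9.08% and 20.5% in the si arm. The shares with a library left out are not given, so the shifts in these lists have no background. Astrocyte markers had 2 of 4 higher in CIRBP libraries and 0 called in the si arm by limma. Among the 4, Slc1a3 averaged 0.027 FPKM in CIRBP and 0.012 FPKM in NC libraries. It passed the filter only through the si-CIRBP and si-NC libraries. The oligodendrocyte lineage had 3 of 5 higher and 1 lower in CIRBP libraries and 2 lower in the si arm. Without si-CIRBP 1 these became 1 astrocyte marker higher and 1 lineage marker lower, and without si-NC 1 the lineage had 1 higher and 1 lower. The part of these markers in the tubulin results was not tested.

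**Figure D5:**
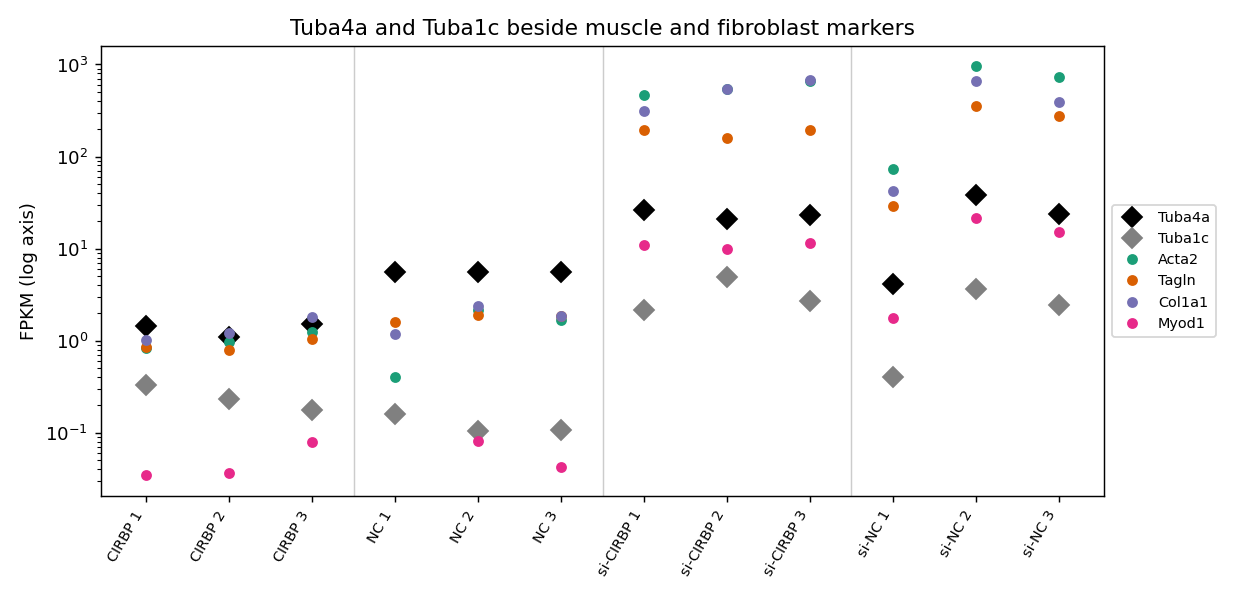
FPKM (log axis) of Tuba4a and Tuba1c (diamonds) beside the smooth muscle genes Acta2 and Tagln, the fibroblast gene Col1a1 and the muscle gene Myod1 (circles) in each of the 12 libraries. NC 1 is listed at 0 for Myod1 and is not drawn, some circles hide others, and among the 6 libraries of the si arm si-NC 1 is the lowest for all 6 genes, with Tuba4a at 4.16 FPKM and Acta2 at 73.8 FPKM.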

How the data were processed

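Levels were used as FPKM, which the authors computed per gene and library and deposited in 1 table, per the file headers. Per the submitters' processing notes, Bowtie2 2.3.3.1 and Cufflinks 2.2.1 are listed without roles and the builds listed are those of mouse (GRCm38, mm10), while the gene identifiers are rat. The strand setting and how shared reads were counted were not given in the sources used here. The table holds no counts, so the depth behind a value is unknown, relative depth (from ratios of values under 0.3 FPKM) was 0.842 to 1.03 of NC 1, and no counting interval was computed. Apart from 0, no row was equal in any pair of libraries.

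Genes reaching 1 FPKM in 3 or more of 12 libraries (14257 of 18344 rows, 1357 of them transcripts the authors assembled) were fitted with limma 3.58.1 (eBayes with trend, R 4.3.3) on log2(FPKM + 1), with 1 coefficient per group. Two-sided p-values were given a Benjamini-Hochberg adjustment over all genes tested, and genes were called under 0.05. Fold changes on this scale understate low genes, and all 10 members passed the filter. The code was tested on simulated data. Shares were compared with exact permutation tests, and promoters came from RefSeq (GRCr8). Genes named beside the members were those with the highest Pearson r to Tubb3 and the called genes with the largest differences in each list, plus the genes that define a marker list. The members and lists were chosen with earlier results of these data known. Alternatives covered pseudocounts, filters, scalings, variance models, a replicate block and left-out libraries. Shares of all genes called with libraries left out are not given, so a list's count from such a fit has no background. Replicates may be technical, since separate cultures are not described.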

Additional observations from a re-analysis of the deposited data

How the results depend on the processing

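In CIRBP against NC, the 9 tubulins above (Tuba1c counted) and the 1 below held under either scaling. Leaving out a library cannot undo such a separation, so those runs say nothing about it. The Tubb3 difference of 2.28 was 2.56 with a pseudocount of 0.1 and 1.57 with a pseudocount of 5. It was 2.40 with libraries scaled to 1 median, 2.38 with median ratios, and 2.24 to 2.32 with 1 library left out. Scaling to 1 median moved the median of all genes from -0.08 to 0.03. In si-CIRBP against si-NC, 4 tubulins were called higher by limma, but 0 in a fit of the 6 libraries alone, 1 with a variance factor per group, and 1 to 6 with 1 library left out, with 0 called lower throughout. Scaling to 1 median gave 6 and median ratios 5, where 2420 and 1962 of all genes were called higher, against 1294 without scaling. For the other refits the share of all genes is not given, so those counts have no background. Tuba4a turned to -0.36 without si-NC 1 (up to 1.10 with another library left out) and to -0.44 without both first libraries, and Tubb3 ran from 0.02 to 1.08, passing the test under none of its 16 alternatives. The share of Tubb3 in beta tubulin ran from -0.0295 to 0.461 points, and the difference in alpha to beta ratio from 0.0160 to 0.0595. In si-NC against NC, 4 to 6 tubulins were called higher (Tuba1c counted) and 0 lower, against 5 and 0 with all libraries, and Tubb2a ran from -0.20 to 0.0040, the last without si-NC 2. The causes were not tested. The replicate block left 4 tubulins called in si-CIRBP against si-NC, with Tubb3 at 0.75 (adjusted p = 0.205 by limma), and changed no other tubulin call. Deviations of same-numbered libraries from their group means correlated only weakly. The r was 0.0965, 0.0482 and 0.0995 in CIRBP and NC and 0.0142, -0.0898 and 0.0405 in the si arm. Whether same-numbered libraries were handled together is unknown. The depth behind each value is unknown, so no counting limit is given for low genes such as Tuba1c.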

Other observations

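Tbcb, a cofactor that takes part in opening and folding alpha tubulin, was at 15.5 FPKM in si-CIRBP 2 and at 0.187 to 0.450 FPKM in the other 11 libraries. It did not pass the filter on low values and was chosen after its values were seen.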
